A study of Mus musculus with 20 samples.

Results

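The comparison described here set 6 Apc Min libraries treated with DM-aKG against 7 Apc Min libraries given a control treatment, so that 13 of the 20 libraries of the series carry it. The 7 libraries of untreated WT mice served as a reference level. Group membership was read from the sample titles. Both Apc Min groups share the Min allele, a nonsense mutation of Apc, and the Apc protein holds together the complex that marks beta-catenin for destruction. DM-aKG is dimethyl alpha-ketoglutarate, an ester that crosses membranes and is cleaved to alpha-ketoglutarate inside cells. The sources used here do not state its dose, route or duration, or the age and sex of the mice. In all 20 samples the titles name tissue, while the other label fields name intestinal organoids, primary cells, organoid medium and a medium low in glutamine. Smooth muscle, plasma cell and leukocyte transcripts were measured in every library, with Myh11 at 36.8 RPKM or more, Jchain at 34.4 RPKM or more and Ptprc at 1.01 RPKM or more. The labels do not tie libraries to separate mice. All p-values therefore reflect only how these libraries vary, part of which may be technical.

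Alpha-ketoglutarate stands where carbon and nitrogen metabolism meet. It is made from isocitrate or from glutamate, is used up by the oxoglutarate dehydrogenase complex, and accepts amino groups in transamination. It is also the co-substrate of a large family of dioxygenases, among them the prolyl hydroxylases that mark the HIF subunits for degradation, the hydroxylases that mature collagen, and the demethylases of histones and DNA. In the normal gut, stem cells at the crypt base feed absorptive and secretory cells that mature as they move outward, and the adenomas of Apc Min mice keep cells in a crypt-like, dividing state.

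The analysis covered the 12433 of 24795 genes that reached 1 RPKM in at least 6 libraries. RPKM scales a gene's reads to its length in kilobases and to the mapped reads of the library. Differences are of mean log2(RPKM + 1), which understates the change of genes with low values, and a call needs an adjusted p (limma, Benjamini-Hochberg) under 0.05. With DM-aKG, 735 genes were called higher than control (5.91% of those tested) and 3432 lower (27.6%). The median difference over all tested genes was -0.14, and the split of the calls depended on the scaling: median-of-ratios scaling gave 1532 higher (12.3%) and 1718 lower (13.8%), and quantile normalization 1750 higher (14.1%) and 1849 lower (14.9%). Counts of list members are therefore given under the main scaling, with those under median-of-ratios scaling in brackets or beside them. All values of the 6 treated libraries lay above those of the 7 control libraries for 91 genes (0.732%) and below them for 1018 genes (8.19%). Apc itself did not pass between treated and control libraries, with medians of 13.7 and 14.4 RPKM (log2 difference -0.03, SE 0.17, adjusted p = 0.912). The Min allele is a point mutation, so the level of Apc does not check the labels.

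Depth, estimated from the step between low values, was 21.2 to 29.5 M reads per library. The first principal component held 49.8% of the variance and ran from control (-64.85 to -25.47) to WT (31.55 to 51.66), with the treated libraries between -33.41 and 22.72. On the second component, with 15.4% of the variance, all 6 treated libraries (-48.79 to -17.84) lay below all control and WT libraries (-7.72 to 35.26). DM-aKG replicate 2 stood apart from the other treated libraries: it lay within the control range on the first component, and it held the highest treated value for 1988 of the 3432 genes called lower (57.9%). Without it, 881 genes were called higher and 3688 lower. Rn45s, a ribosomal RNA transcript, lay at 3836 RPKM or more in every library of replicates 1 to 4 and at 3621 RPKM or less in replicates 5 to 7. This division comes from the values and not from a label, and differences within each set are given beside the leading lists.

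**Figure D1:**
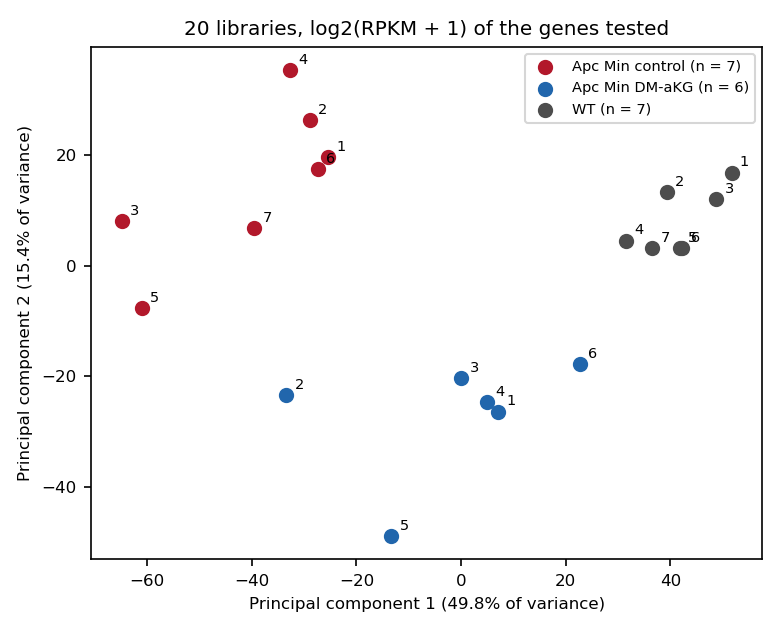
Positions of the 20 libraries on the first and second principal components of log2(RPKM + 1), with each component's share of the variance on its axis and the replicate number beside each point. The treated libraries lie between control and WT on the first component, where replicate 2 sits among the controls at -33.41, and below both groups on the second.

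Genes of extracellular matrix turnover fell together toward the WT level. Of 19 tested matrix proteases and inhibitors, 14 were called lower and 1 higher with DM-aKG (11 and 1 under median-of-ratios scaling), with a median log2 difference of -0.73. Replicates 1 to 4 alone gave a median of -0.99, and replicates 5 to 7 alone -0.98. The exception was Reck, a membrane-anchored inhibitor of matrix proteases (log2 difference 0.35), named after its value was seen. Of the same 19 genes, 16 were higher in control than in WT libraries, where 43.2% of all tested genes were called higher and 15.7% lower. Between DM-aKG and WT libraries 10 were higher and 3 lower, beside 21.9% and 17.3% of all tested genes. In the value lists that follow, 3 values stand for the lowest, the median and the highest library of a group.

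Among the proteases, Mmp13, a collagenase (mm10 chromosome 9, 7272514 to 7283331), lay at 6.52, 21.5 and 35.1 RPKM in control, 1.12, 2.57 and 4.48 RPKM in treated and 1.04, 1.59 and 3.13 RPKM in WT libraries. All 6 treated libraries were below the lowest control library and 4 of them were inside the WT range, a log2 difference of -2.38, SE 0.31, adjusted p = 6.93e-06 from control. Mmp14, a membrane-bound protease that activates other matrix proteases (chromosome 14, 54431612 to 54445364), lay at 56.3, 65.6 and 109.8 RPKM in control, 9.19, 16.4 and 40.7 RPKM in treated and 6.83, 9.88 and 10.5 RPKM in WT libraries. It too separated treated from control libraries fully (-2.02, SE 0.24, adjusted p = 2.57e-06), while it stayed above WT (0.89, SE 0.24, adjusted p = 0.00718). Mmp10, a stromelysin named after its values were seen, lay at 24.9, 72 and 78.4 RPKM in control, 4.06, 9.54 and 31.7 RPKM in treated and 2.91, 9.31 and 12.3 RPKM in WT libraries. Its 5 treated libraries other than replicate 2 were below every control library (-2.54, SE 0.37, adjusted p = 2.9e-05). Adam8, a sheddase of leukocytes and tumor cells, had control, DM-aKG and WT medians of 4.12, 0.382 and 0.525 RPKM (-1.72, SE 0.15, adjusted p = 8.4e-08).

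Of the 11 tested proteases 9 were lower and none higher (6 and none under median-of-ratios scaling), and of the 8 inhibitors 5 were lower and 1, Reck, was higher (5 and 1). Timp1, a secreted inhibitor of matrix metalloproteases, lay at 7.09, 8.43 and 11.6 RPKM in control, 0.448, 1.52 and 4.57 RPKM in treated and 0.268, 0.518 and 0.786 RPKM in WT libraries, with no overlap between treated and control libraries (-1.9, SE 0.23, adjusted p = 2.76e-06). Serpinb5, the serpin known as maspin, fell from a median of 13.4 RPKM to 2.23 RPKM, and all 6 treated libraries were inside the WT range (-2.02, SE 0.22, adjusted p = 7e-07). Timp2, chosen after its values were seen as the related inhibitor, had medians of 19.6 and 21.6 RPKM and did not pass (-0.09, SE 0.15, adjusted p = 0.665). The collagens that these enzymes act on were lower as well: all 5 fibrillar collagen genes and 4 of 5 basement membrane collagen genes were called lower under both scalings. Col1a1, a chain of type I collagen (chromosome 11, 94936224 to 94953042), lay at 39.4, 54.6 and 78.8 RPKM in control, 3.56, 9.54 and 17.2 RPKM in treated and 7.35, 12.6 and 15.7 RPKM in WT libraries. The treated libraries were all below the controls and 4 of 6 were inside the WT range (-2.4, SE 0.25, adjusted p = 3.91e-07).

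Of the 10 tested coagulation and fibrinolysis genes, 7 were called lower (6 under median-of-ratios scaling) and 1, Tfpi, an inhibitor of tissue factor named after its value was seen, was higher (0.31, adjusted p = 0.0351, a call lost without any one of control replicates 3 to 5 or DM-aKG replicates 1, 3, 4, 5 and 6). F3, tissue factor, which starts coagulation, lay at 24, 49.7 and 72.2 RPKM in control, 13.2, 15.6 and 31.1 RPKM in treated and 6.62, 8.79 and 10.1 RPKM in WT libraries. Its treated libraries were above every WT library, and 5 of 6 were below every control library (-1.41, SE 0.21, adjusted p = 4.3e-05). Plat, tissue plasminogen activator, lay at 115, 149 and 239 RPKM in control, 4.79, 25.9 and 126 RPKM in treated and 2.18, 3.11 and 4.93 RPKM in WT libraries. The treated group spread over the gap between control and WT, with replicate 2 inside the control range (-2.52, SE 0.43, adjusted p = 0.000164). Plaur, the receptor of the urokinase plasminogen activator, had medians of 15.4, 4.51 and 1.5 RPKM in control, DM-aKG and WT libraries (-1.62, SE 0.3, adjusted p = 0.000327). Cfi, complement factor I, a protease that inactivates complement, fell furthest among the complement and coagulation genes: it lay at 54.1, 76.4 and 120.1 RPKM in control, 0.367, 3.38 and 33.3 RPKM in treated and 0.145, 0.387 and 0.957 RPKM in WT libraries, and treated and control libraries did not overlap (-4.08, SE 0.51, adjusted p = 5.43e-06).

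**Figure D2:**
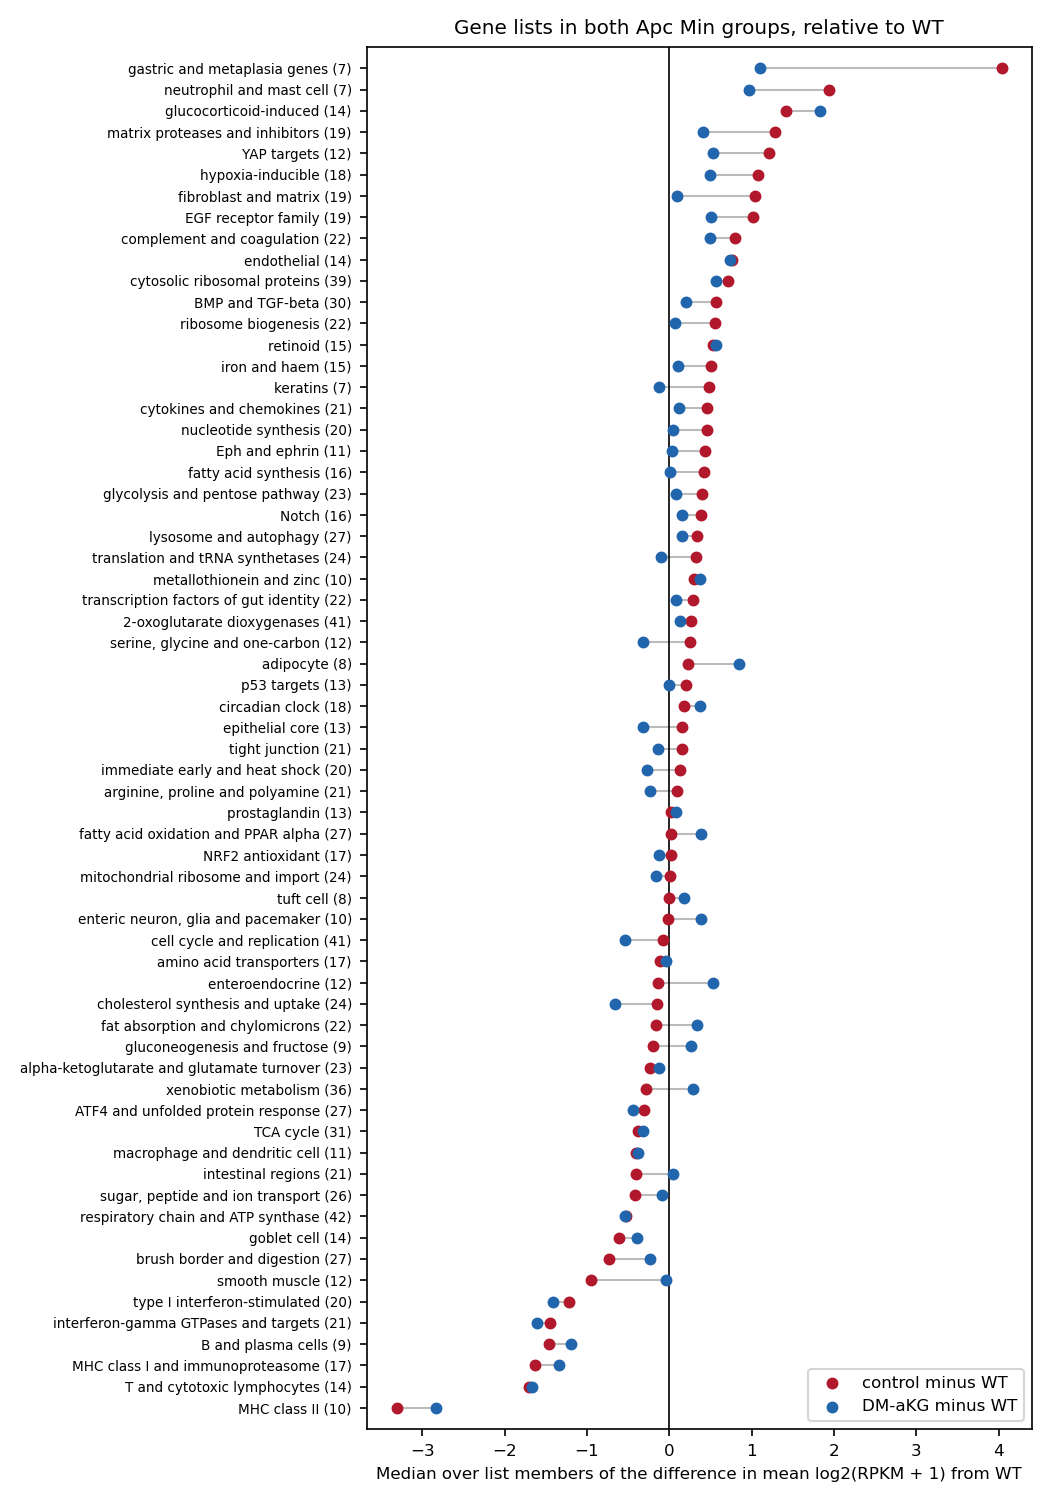
Median over the tested members of each gene list (number in brackets) of the difference in mean log2(RPKM + 1) from WT, for control (red) and DM-aKG (blue) libraries, ordered by the control value. Lists of stomach products, matrix proteases, fibroblast matrix and EGF receptor signaling sit nearer to 0 with DM-aKG, while MHC class II, lymphocyte, respiratory chain and endothelial lists stay near their control position.

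Signaling genes around the EGF receptor fell as well. Of 19 tested members of this list, 11 were called lower and 0 higher (6 and 0 under median-of-ratios scaling), 4 of the 6 ligands and 7 of the 13 receptors and feedback genes. The list's median difference was -0.45, and it was -0.36 in replicates 1 to 4 alone and -0.94 in replicates 5 to 7 alone. Among ligands, Btc, betacellulin, lay at 4.22, 8.77 and 11.3 RPKM in control, 1.27, 2.11 and 6.94 RPKM in treated and 1.09, 1.26 and 1.61 RPKM in WT libraries. All treated libraries but replicate 2 were below the controls (-1.32, SE 0.22, adjusted p = 0.000125). Ereg, epiregulin, named after its values were seen, overlapped between treated and control libraries and did not pass (-0.38, SE 0.44, adjusted p = 0.536).

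The ETS factors that respond to ERK signaling lie downstream. Etv5 (chromosome 16, 22381309 to 22439719) lay at 18.7, 26.5 and 36.2 RPKM in control, 0.878, 2.3 and 11.7 RPKM in treated and 0.693, 0.895 and 1.17 RPKM in WT libraries, and no treated library reached the lowest control (-2.87, SE 0.29, adjusted p = 2.71e-07). It remained above WT (0.97, SE 0.29, adjusted p = 0.0119). Etv4 had control, DM-aKG and WT medians of 6.37, 0.455 and 0.131 RPKM (-2.1, SE 0.27, adjusted p = 6.27e-06). Dusp4, a phosphatase that dampens MAP kinases, lay at 5.02, 12.7 and 15.1 RPKM in control, 0.643, 1.58 and 9.09 RPKM in treated and 0.786, 0.95 and 1.25 RPKM in WT libraries. Replicate 2, at 9.09 RPKM, was the one treated library of Dusp4 inside the control range (-2.02, SE 0.3, adjusted p = 3.49e-05).

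Falls were also called for 6 of 12 tested YAP targets with none higher (4 lower and 2 higher under median-of-ratios scaling) and for 16 of 30 BMP and TGF-beta genes with 1 higher (12 and 1 under median-of-ratios scaling). Ajuba, a LIM protein of the Hippo pathway, had medians of 5.93, 1.46 and 0.731 RPKM in control, DM-aKG and WT libraries, with no overlap between treated libraries and either other group (-1.36, SE 0.16, adjusted p = 1.72e-06). Among ligands of the TGF-beta family, Inhba, the activin A subunit, lay at 2.82, 6.47 and 11.2 RPKM in control, 0.268, 0.532 and 3.39 RPKM in treated and 0.234, 0.366 and 0.778 RPKM in WT libraries. In 5 of 6 treated libraries it was below every control, and 4 were inside the WT range (-1.8, SE 0.28, adjusted p = 5.54e-05). Tgfb1 lay at 6.3, 7.9 and 9.81 RPKM in control, 3.7, 3.9 and 5.14 RPKM in treated and 4.31, 5.02 and 5.93 RPKM in WT libraries, lower in all 6 treated libraries than in any control (-0.81, SE 0.1, adjusted p = 3.2e-06), with 2 of 6 inside the WT range. Of 16 Notch pathway genes, 6 were lower and none higher (3 and 2 under median-of-ratios scaling). All tested genes gave 27.6% lower and 5.91% higher (13.8% and 12.3%). The median difference of the Notch list, -0.13, was near the -0.14 of all genes. The repressor Hes1, a direct Notch target, had medians of 22.2, 10.3 and 13.7 RPKM in control, DM-aKG and WT libraries, and was below both (-0.91, SE 0.13, adjusted p = 2.49e-05 against control, -0.38, SE 0.13, adjusted p = 0.0264 against WT). Hes6, which opposes Hes1, fell from a median of 33.1 to 14.6 RPKM, near the WT median of 13.8 RPKM (-1.17, SE 0.14, adjusted p = 2.76e-06).

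Genes that are not typical of small intestine fell furthest among the lists. Of 14 listed stomach products 7 passed the filter on low values. All 7 were called lower under both scalings, with a median difference of -2.64, and all 7 were higher in control than in WT libraries. Anxa10 was under 1 RPKM in every treated and WT library, so it passed the filter through the control libraries alone. For such genes a fall from control was built into the choice of tested genes. Gkn3, a gastrokine of the stomach (chromosome 6, 87383256 to 87388935), lay at 37.5, 67.9 and 189 RPKM in control, 0.141, 3.92 and 19.8 RPKM in treated and 0.0447, 0.0491 and 0.386 RPKM in WT libraries. No treated library reached the control range (-4.24, SE 0.52, adjusted p = 4.54e-06). Ctse, cathepsin E of the gastric pit, lay at 76.4, 102 and 177 RPKM in control, 0.263, 4.02 and 54.4 RPKM in treated and 0.431, 0.987 and 2.08 RPKM in WT libraries, and was without overlap too (-4.36, SE 0.6, adjusted p = 1.94e-05). Anxa10, an annexin of gastric epithelium, was at 3.83 RPKM or more in every control library and at 0.739 RPKM or less in every treated one (-2.54, SE 0.24, adjusted p = 1.87e-07). Muc6, the mucin of gastric glands, was at 14.7 RPKM in DM-aKG replicate 2 and at 1.31 RPKM or less in the other 5 treated libraries, against 6.64 to 32.8 RPKM in control libraries (-3.05, SE 0.49, adjusted p = 8.52e-05).

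Beyond the lists, the 15 largest falls held further genes of this kind. Bpifb5, of a family of lipid-binding proteins of the airways, ranged from 32.7 to 67.2 RPKM among controls and from 0.0227 to 8.05 RPKM among treated libraries, and 6 of the 7 WT libraries were at 0 (-4.08, SE 0.36, adjusted p = 8.4e-08). Prl2c2, proliferin, a placental hormone, lay at 11.2 to 69.4 RPKM in control, 0.0831 to 4.03 RPKM in DM-aKG and at 0.0808 RPKM or less in WT libraries (-4.19, SE 0.36, adjusted p = 5.05e-08); it has near-identical copies, so the reads behind it may be shared between them. Ly6d, a surface antigen of squamous and lymphoid cells, fell from a median of 96.6 to 6.69 RPKM (-3.49, SE 0.47, adjusted p = 1.41e-05). The keratins showed the same direction, with 5 of 7 tested members lower (3 under median-of-ratios scaling), and Krt7, a keratin of ducts and stomach, lay at 98, 124 and 252 RPKM in control, 22.4, 31.7 and 43.7 RPKM in treated and 23.8, 33.9 and 61.1 RPKM in WT libraries. All treated libraries of Krt7 were below the controls and 5 were inside the WT range (-2.04, SE 0.23, adjusted p = 1.7e-06). Cldn4, a tight junction claudin, fell from a median of 142 to 27.2 RPKM, with a WT median of 34.2 RPKM (-2.16, SE 0.27, adjusted p = 5.55e-06).

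Retinoid genes went both ways: of 15 tested, 4 were lower, a share near the 27.6% of all genes, and 3 were higher (4 and 4 under median-of-ratios scaling). Stra6, the receptor that takes up retinol (chromosome 9, 58063788 to 58153996), lay at 12.8, 27.5 and 37 RPKM in control, 0.0897, 0.765 and 5.22 RPKM in treated and 0.042, 0.103 and 0.653 RPKM in WT libraries. Stra6 did not overlap between treated and control libraries (-3.68, SE 0.31, adjusted p = 4.96e-08). Rdh10 and Dhrs9, which oxidize retinol, were lower, with log2 differences of -1.92, SE 0.19, adjusted p = 2.1e-07 and -2.0, SE 0.29, adjusted p = 2.9e-05. The 3 members called higher, named after their values were seen, were Aldh1a1 (0.69), which makes retinoic acid, Dhrs3 (0.39), which returns retinaldehyde to retinol, and Cyp26b1 (0.45), which degrades retinoic acid. The call of Dhrs3 did not hold without control replicate 5 or 6 or DM-aKG replicate 4, 5 or 6, and that of Cyp26b1 without control replicate 2, 3, 4 or 6 or DM-aKG replicate 2, 3, 4 or 5. Retsat, a retinol saturase outside the list, is described with the genes above both groups.

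Transcription factors of gut identity were called lower for 8 of 22 tested and higher for 3 (6 and 5 under median-of-ratios scaling). Shares of all tested genes were 27.6% and 5.91% (13.8% and 12.3%). The list's median difference was 0.02, against -0.14 over all genes, and the 3 members called higher are not named here. Sox4, a progenitor factor, lay at 21.4, 25.8 and 51.7 RPKM in control, 3.99, 6.24 and 16.5 RPKM in treated and 4.06, 4.7 and 5.1 RPKM in WT libraries, below every control in all 6 treated libraries (-2.01, SE 0.22, adjusted p = 1.15e-06). The forkhead factor Foxa1 fell from a median of 22.1 to 6.87 RPKM, and 5 of 6 treated libraries were inside the WT range (-1.5, SE 0.18, adjusted p = 2.33e-06). Foxa3 went below both groups, with medians of 8.15, 4 and 5.49 RPKM in control, DM-aKG and WT libraries (-1.0, SE 0.13, adjusted p = 8.02e-06 against control, -0.43, SE 0.13, adjusted p = 0.0152 against WT). Onecut2, a factor of the proximal gut, is counted with the genes of gut position and not in this list. It lay at 7.09, 13.6 and 18.8 RPKM in control, 0.0111, 0.543 and 3.62 RPKM in treated and 0.0349, 0.0768 and 0.466 RPKM in WT libraries, a log2 difference of -2.98, SE 0.26, adjusted p = 7.17e-08. The hepatocyte and enterocyte factor Hnf4a and the intestinal master factor Cdx2 did not pass (0.25, SE 0.16, adjusted p = 0.247 and 0.15, SE 0.19, adjusted p = 0.561).

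**Figure D3:**
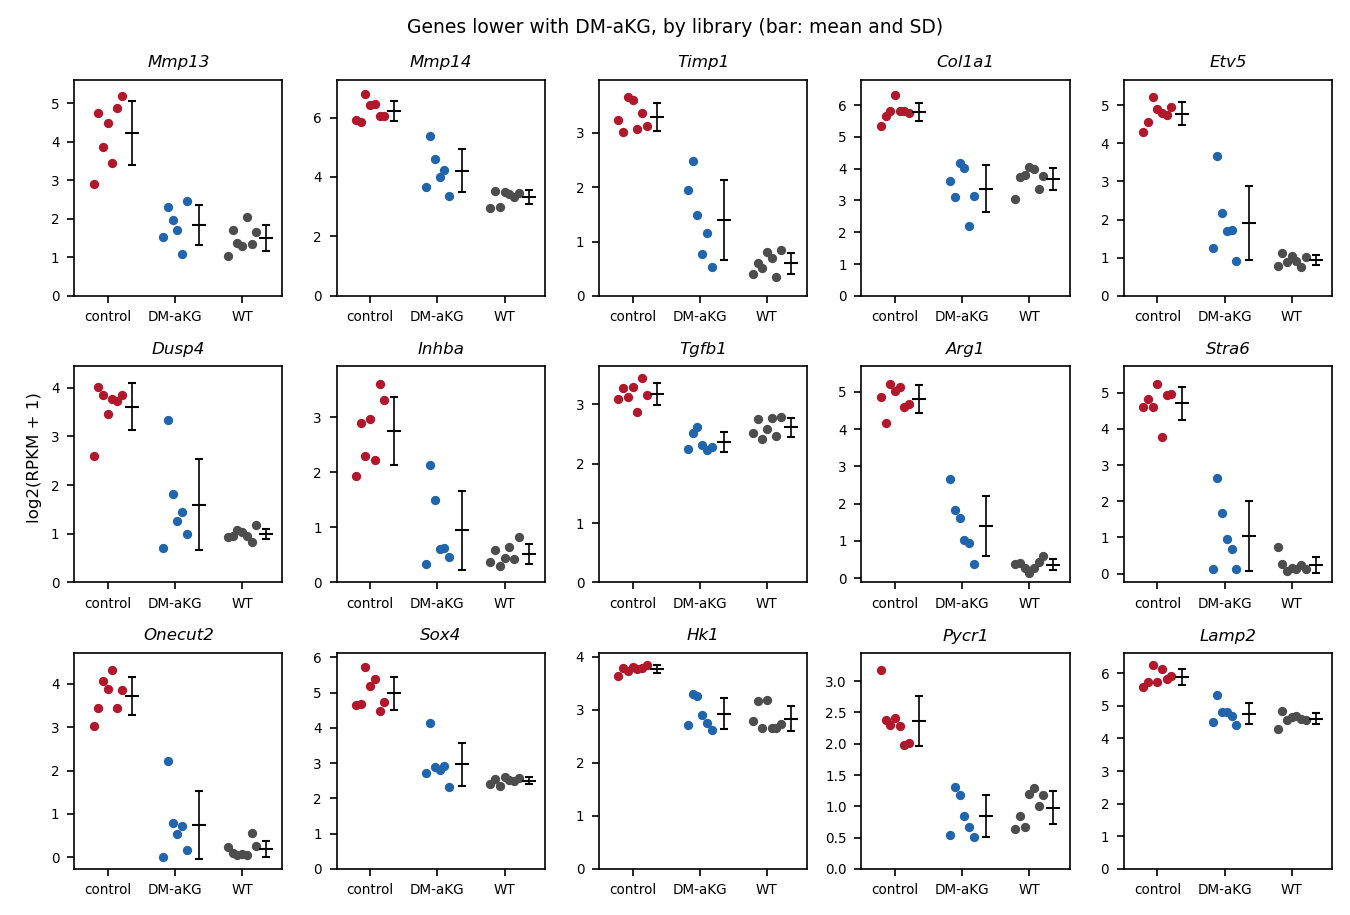
Values of 15 genes called lower with DM-aKG in each of the 20 libraries, as log2(RPKM + 1), by group; the bar beside each group is its mean with 1 SD. Treated libraries lie below the control libraries without overlap for 13 of the 15 genes, and for Dusp4 and Inhba replicate 2 alone reaches the control range.

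Metabolic genes divided by pathway. Of 23 tested glycolysis and pentose phosphate genes, 15 were called lower and none higher (11 lower and 1 higher under median-of-ratios scaling), 13 of them among the 17 glycolytic members. The list's median was -0.57, with -0.71 in replicates 1 to 4 alone and -0.39 in replicates 5 to 7 alone. Slc2a1, the glucose carrier GLUT1, lay at 27.1, 45 and 77.3 RPKM in control, 4.68, 9.97 and 31.9 RPKM in treated and 3.46, 4.92 and 6.3 RPKM in WT libraries, and its treated libraries other than replicate 2 were below the controls (-2.07, SE 0.31, adjusted p = 3.26e-05). Hk1, a hexokinase, lay at 11.4, 12.8 and 13.5 RPKM in control, 5.17, 6.11 and 8.9 RPKM in treated and 5.29, 5.63 and 8.11 RPKM in WT libraries, lower in every treated than in any control library (-0.84, SE 0.12, adjusted p = 2.24e-05). Gapdh, often used as a reference transcript, fell from a median of 66.6 to 40.5 RPKM, and all 6 treated libraries were inside the WT range (-0.72, SE 0.11, adjusted p = 7.11e-05).

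Enzymes of arginine, proline and polyamine metabolism gave most of their lower calls in the polyamine branch. In the polyamine branch, 7 of 8 tested genes were lower and none higher (3 and none under median-of-ratios scaling). Of 7 urea cycle and arginine genes 1 was lower and 1 higher (1 and 3). Of 6 proline genes 2 were lower and 1 higher (2 and 2). The difference between the branches was not tested. Arg1, arginase, which turns arginine into ornithine (chromosome 10, 24915221 to 24927484), lay at 16.9, 28 and 36 RPKM in control, 0.295, 1.54 and 5.28 RPKM in treated and 0.102, 0.297 and 0.521 RPKM in WT libraries. Treated and control libraries were far apart, with no overlap (-3.4, SE 0.26, adjusted p = 1.15e-08). Smox, spermine oxidase, lay at 20.9, 24.3 and 35.6 RPKM in control, 4.49, 6.58 and 17.1 RPKM in treated and 4.97, 6.42 and 10.6 RPKM in WT libraries, without overlap, and 4 of 6 treated libraries were inside the WT range (-1.68, SE 0.23, adjusted p = 1.27e-05). Otc, which uses ornithine for citrulline in enterocytes, was higher, with medians of 7.8, 24.4 and 45.1 RPKM in control, DM-aKG and WT libraries (1.01, SE 0.31, adjusted p = 0.0161). The call of Otc was lost with the 13 Apc Min libraries alone (adjusted p = 0.0521), in replicates 1 to 4 and 5 to 7 alone (adjusted p = 0.0529 and 0.264) and with the level of smooth muscle genes as a covariate (log2 difference 0.45, adjusted p = 0.43). Pycr1, which makes proline in mitochondria, fell from a median of 3.93 to 0.699 RPKM (-1.52, SE 0.18, adjusted p = 2.2e-06). Phgdh, which opens the serine pathway, fell from 7.02 to 2.38 RPKM (-1.28, SE 0.19, adjusted p = 3.88e-05). Of 5 tested serine and glycine enzymes, 4 were lower (3 under median-of-ratios scaling).

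Amino acid carriers went both ways, with 4 of 17 tested lower and 2 higher (4 and 7 under median-of-ratios scaling). Shares of all tested genes were 27.6% and 5.91% (13.8% and 12.3%). The median difference of the carriers was 0.26, above the -0.14 of all genes. Slc38a4, a neutral amino acid carrier of liver, lay at 25.5, 48.4 and 111 RPKM in control, 0.183, 3.89 and 26.2 RPKM in treated and 0.0681, 0.114 and 0.227 RPKM in WT libraries, and the treated libraries other than replicate 2 were below the controls (-3.7, SE 0.53, adjusted p = 2.71e-05). Slc1a4, which exchanges alanine, serine and cysteine, fell from a median of 9.55 to 2.32 RPKM (-1.49, SE 0.19, adjusted p = 6.66e-06). The 2 carriers called higher were Slc6a19 (0.67), the brush border carrier of neutral amino acids, and Slc7a8 (1.19), a basolateral exchanger, whose call did not hold without control replicate 5 or 6 or DM-aKG replicate 5 or 6.

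Genes of growth and protein synthesis were called in the lower direction only under the main scaling. Over all tested genes 27.6% were lower and 5.91% higher (13.8% and 12.3% under median-of-ratios scaling). Among nucleolar factors of ribosome biogenesis, 14 of 22 were called lower (6 under median-of-ratios scaling) and none higher, with a median of -0.42 that was -0.23 in replicates 1 to 4 alone and -0.78 in replicates 5 to 7 alone. In control libraries 19 of the 22 were above WT, and in treated libraries 4, beside 43.2% and 21.9% of all tested genes. Npm1, nucleophosmin, lay at 145, 174 and 201 RPKM in control, 91.9, 125 and 144 RPKM in treated and 67.9, 88.4 and 109 RPKM in WT libraries, with all treated libraries under the controls (-0.52, SE 0.12, adjusted p = 0.00163). Of 24 translation factors and tRNA synthetases, 13 were lower (10 under median-of-ratios scaling) and none higher. Gars, the glycyl-tRNA synthetase, fell from a median of 45.7 to 25.6 RPKM (-0.71, SE 0.11, adjusted p = 5.47e-05), and the helicase Eif4a1 from 206 to 129 RPKM (-0.59, SE 0.11, adjusted p = 0.000313). For nucleotide synthesis 10 of 20 genes were lower and none higher (4 and 1 under median-of-ratios scaling). Impdh1, which commits purines to guanine nucleotides, lay at 6.31, 6.69 and 7.15 RPKM in control, 3.23, 3.96 and 5.03 RPKM in treated and 2.16, 3.12 and 3.81 RPKM in WT libraries (-0.6, SE 0.1, adjusted p = 0.000159).

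Of 39 tested cytosolic ribosomal proteins, 4 were called lower (Rpl7, Rpl27, Rps2 and Rps6) and none was under median-of-ratios scaling. Above WT were 39 in control and 36 in treated libraries, beside 43.2% and 21.9% of all tested genes. All 4 lower calls were lost when control replicate 3, or DM-aKG replicate 6, was left out. Those of Rpl27, Rps2 and Rps6 were lost also without each of 6, 9 and 14 other single libraries. Lysosomal genes were lower for 8 of 17 (3 under median-of-ratios scaling), beside 27.6% of all tested genes (13.8%). Under median-of-ratios scaling the lysosomal share was near that of all genes. Lamp2, a lysosomal membrane protein, lay at 46.8, 56.1 and 75.8 RPKM in control, 20.3, 25.7 and 39.2 RPKM in treated and 18.7, 23.1 and 27.6 RPKM in WT libraries, and 5 of 6 treated libraries were inside the WT range (-1.13, SE 0.13, adjusted p = 2.56e-06).

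Among absorptive genes, calls in the higher direction outnumbered those in the lower. Over all tested genes 5.91% were higher and 27.6% lower (12.3% and 13.8% under median-of-ratios scaling). Of 27 tested brush border and digestive genes, 14 were called higher and 2 lower (19 and 1 under median-of-ratios scaling), with a median of 0.53 that was 0.33 in replicates 1 to 4 alone and 0.81 in replicates 5 to 7 alone. In control libraries 17 of the 27 were below WT, beside 15.7% of all tested genes. In treated libraries 5 were, a share near the 17.3% of all tested genes. Enpep, glutamyl aminopeptidase (chromosome 3, 129269175 to 129332720), lay at 181, 306 and 347 RPKM in control, 389.8, 478 and 542 RPKM in treated and 446, 539 and 611 RPKM in WT libraries. All 6 treated libraries were above the highest control and 4 were inside the WT range (0.77, SE 0.14, adjusted p = 0.00033). Xpnpep2, a membrane aminopeptidase, lay at 33.4, 62.1 and 94.1 RPKM in control, 105, 142 and 185 RPKM in treated and 145, 155 and 196 RPKM in WT libraries and likewise separated treated from control libraries (1.1, SE 0.19, adjusted p = 0.000136).

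The 2 brush border members called lower, Plekhs1 (-1.17) and Alpl (-0.54), an alkaline phosphatase, did not share the direction of the list, and the call of Alpl did not hold without control replicate 3, 5 or 6 or DM-aKG replicate 1, 3, 4, 5 or 6. Heph, hephaestin, which oxidizes iron for export from enterocytes, lay at 32.8, 37.8 and 41.6 RPKM in control, 45.8, 51.5 and 54.4 RPKM in treated and 49.2, 59.8 and 63.8 RPKM in WT libraries, with every treated library above every control (0.43, SE 0.08, adjusted p = 0.000292). In the iron and haem list, to which Heph belongs, it was the 1 gene of 15 called higher, and 6 were lower (2 higher and 4 lower under median-of-ratios scaling). Of 26 sugar, peptide and ion transport genes, 8 were higher and 4 lower (11 and 2), beside 5.91% and 27.6% of all tested genes (12.3% and 13.8%). Among them, the chloride and bicarbonate exchanger Slc26a3 lay at 25.4, 32.9 and 43.3 RPKM in control, 45, 51.4 and 85.4 RPKM in treated and 31.2, 39.3 and 53.1 RPKM in WT libraries, and it too did not overlap (0.68, SE 0.14, adjusted p = 0.00107). Villin, Vil1, which bundles actin in microvilli, had medians of 384, 538 and 882 RPKM in control, DM-aKG and WT libraries (0.53, SE 0.17, adjusted p = 0.0249). Its call was lost when control replicate 3, DM-aKG replicate 3 or DM-aKG replicate 6 was left out (adjusted p = 0.0537, 0.0578 and 0.0602).

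Genes of detoxification and fatty acid oxidation gave more higher than lower calls. Over all tested genes 5.91% were higher and 27.6% lower (12.3% and 13.8% under median-of-ratios scaling). Of 36 xenobiotic genes, 8 were higher and 1 lower (17 and 1 under median-of-ratios scaling), and 5 of the 8 were conjugating enzymes. Ugt2b34, a glucuronosyltransferase, lay at 76.2, 85.6 and 127 RPKM in control, 97, 141 and 197 RPKM in treated and 130.4, 178 and 202 RPKM in WT libraries (0.57, SE 0.15, adjusted p = 0.00535). Nr1i2, the pregnane X receptor that induces such enzymes, had medians of 21.3, 26.9 and 22.9 RPKM (0.56, SE 0.15, adjusted p = 0.00714). Ahr, the aryl hydrocarbon receptor, was the member called lower (-0.56). Of 27 fatty acid oxidation genes 5 were higher and none lower (13 and none under median-of-ratios scaling). Ehhadh, a peroxisomal enzyme, lay at 10.4, 15.5 and 16.9 RPKM in control, 14.9, 23.3 and 43.8 RPKM in treated and 18.8, 21.5 and 23.6 RPKM in WT libraries (0.67, SE 0.17, adjusted p = 0.00401). The medians of these lists differed by replicate set: 0.14 in replicates 1 to 4 and 1.05 in replicates 5 to 7 for xenobiotic genes, and 0.18 and 0.7 for fatty acid oxidation.

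Of 21 genes that mark position along the gut, 2 were higher and 3 lower with DM-aKG (4 and 3 under median-of-ratios scaling), Onecut2 among the latter. Individual markers varied widely within groups, and the medians of Lct and Gata4 were higher in WT than in either Apc Min group. Lct, lactase of the proximal small intestine, lay at 0.0169, 0.139 and 3.17 RPKM in control, 0.167, 0.578 and 195 RPKM in treated and 0.149, 57.3 and 229 RPKM in WT libraries. Gata4, a proximal transcription factor, lay at 0.258, 0.867 and 5.94 RPKM in control, 0.131, 0.999 and 12.3 RPKM in treated and 0.486, 12.2 and 22.1 RPKM in WT libraries. Fabp6, the bile acid binding protein of the ileum, lay at 684, 2293 and 5023 RPKM in control, 931, 3735 and 6010.2 RPKM in treated and 158, 3745 and 9728 RPKM in WT libraries. None of these passed between treated and control libraries (adjusted p = 0.519, 0.977 and 0.576), and the first and last were named, with Gata4, after their values were seen. The labels do not give the sampled segment. The part of position in the absorptive results and in the comparisons with WT was not tested.

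Smooth muscle transcripts moved with the treatment. All 12 tested contractile genes were called higher with DM-aKG, all 12 were lower in control than in WT libraries, and none differed between treated and WT libraries. All 12 were also called under median-of-ratios scaling, 11 in replicates 1 to 4 alone and none in replicates 5 to 7 alone, where the median difference was 0.62. Their summed level was 454.7 to 1534 RPKM in control, 1052 to 1806 RPKM in DM-aKG and 1172 to 2004 RPKM in WT libraries, and no member was at 0. Myh11, the smooth muscle myosin heavy chain, lay at 36.8, 84.1 and 139.9 RPKM in control, 110.1, 165 and 213 RPKM in treated and 123, 145 and 194 RPKM in WT libraries (1.13, SE 0.23, adjusted p = 0.000867). In bulk samples, fewer cells of a type and less RNA per cell cannot be told apart. With the mean smooth muscle level as a covariate, 219 genes were called higher and 2326 lower with DM-aKG. Under this covariate the brush border list had 1 gene higher and 1 lower and the matrix protease list 10 lower, against 14 and 14 without it, and the median of the brush border list was 0.28 in place of 0.53.

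Neuronal, endothelial and adipocyte genes gave fewer calls than smooth muscle genes. Of 19 tested fibroblast and matrix genes, which include the collagens above, 12 were lower and none higher under both scalings. Of the 9 tested members that are other matrix proteins and cell markers, 3 were lower under both scalings, with a median of -0.29. Shares of all tested genes called lower were 27.6% and, under median-of-ratios scaling, 13.8%. Neuronal genes of the gut wall were higher for 4 of 8 tested (6 under median-of-ratios scaling), with Snap25, a synaptic vesicle fusion protein, at medians of 3.08, 4.87 and 3.29 RPKM in control, DM-aKG and WT libraries (0.43, SE 0.1, adjusted p = 0.00192). Glial markers did not pass the filter on low values. Of 14 endothelial genes, 1 was higher and 2 were lower than control (2 and 2 under median-of-ratios scaling), and 13 were above WT in treated and 9 in control libraries, with summed levels of 97.48 to 127.7 RPKM in control, 81.5 to 116.3 RPKM in DM-aKG and 31.5 to 75.96 RPKM in WT libraries. Of 7 listed mast cell genes 2 passed the filter, and both were called lower under both scalings. They were Mcpt1 and Mcpt2, proteases of mucosal mast cells, with log2 differences of -1.74, SE 0.52, adjusted p = 0.0137 and -1.91, SE 0.39, adjusted p = 0.000938. No adipocyte gene was called, and Adipoq, adiponectin, spread from 1.38 to 55.3 RPKM in control, 1.59 to 66.4 RPKM in DM-aKG and 0.0553 to 61.4 RPKM in WT libraries. The part of these cell types in the other results was not tested.

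Hormone genes of enteroendocrine cells rose in 5 of 12 tested (Sst, Chgb, Chga, Neurod1 and Gcg) and none fell, under both scalings. The calls of Gcg, the proglucagon gene, and Neurod1, an endocrine transcription factor, were lost without DM-aKG replicate 5 (adjusted p = 0.0579 and 0.0519). Sst, somatostatin, lay at 13.3, 18 and 28.7 RPKM in control, 27.8, 33.7 and 45.8 RPKM in treated and 16, 22.1 and 27.1 RPKM in WT libraries, above both control (0.94, SE 0.15, adjusted p = 8.93e-05) and WT libraries (0.62, SE 0.15, adjusted p = 0.00379). Chgb, chromogranin B of hormone granules, lay at 5.73, 8.41 and 14.7 RPKM in control, 13.1, 18.3 and 34.2 RPKM in treated and 7.35, 8.95 and 17.4 RPKM in WT libraries (1.03, SE 0.26, adjusted p = 0.00431).

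A set of genes stood apart from control and WT alike. For 20 genes all treated libraries lay above the 14 other libraries (0.161%) and for 71 they lay below (0.571%). The treated libraries share no sample with either other group, but both comparisons use the same treated libraries. Among genes above both, Hlf, a circadian leucine zipper factor (chromosome 11, 90336536 to 90390895), lay at 1.86, 2.54 and 3.23 RPKM in control, 4.52, 5.28 and 9.53 RPKM in treated and 2.4, 2.75 and 3.57 RPKM in WT libraries. Hlf was higher in every treated library than in any other (0.96, SE 0.14, adjusted p = 1.78e-05 against control, 0.77, SE 0.14, adjusted p = 0.000254 against WT). Usp2, a ubiquitin protease with a daily rhythm, lay at 4.39, 6.67 and 10.9 RPKM in control, 9.79, 16.8 and 19.2 RPKM in treated and 11.8, 16.2 and 25 RPKM in WT libraries and matched the WT range in 5 of 6 treated libraries (1.04, SE 0.18, adjusted p = 0.000186). The labels give no time of collection.

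Ppara, the fatty acid receptor that induces oxidation genes, lay at 3.83, 15.2 and 23 RPKM in control, 19, 26.3 and 55.4 RPKM in treated and 4.13, 5.49 and 6.69 RPKM in WT libraries, and all treated libraries were above the WT range and 4 above every control (0.96, SE 0.29, adjusted p = 0.0144 against control, 2.17, SE 0.29, adjusted p = 2e-05 against WT). Retsat, which saturates retinol, lay at 8.92, 18.2 and 29.4 RPKM in control, 25.8, 35.7 and 68.7 RPKM in treated and 9.12, 12.1 and 14.6 RPKM in WT libraries, again with no overlap with WT (1.11, SE 0.23, adjusted p = 0.00104 and 1.61, SE 0.23, adjusted p = 4.4e-05). Slc47a1, an exporter of organic cations, had medians of 9.24, 23.1 and 8 RPKM in control, DM-aKG and WT libraries (1.11, SE 0.25, adjusted p = 0.00172 and 1.37, SE 0.25, adjusted p = 0.000326). Aqp1, a water channel, lay at 33.3, 53.4 and 95 RPKM in control, 105, 122 and 133 RPKM in treated and 25.3, 62.3 and 105 RPKM in WT libraries, above every control library (1.21, SE 0.29, adjusted p = 0.00356) and with 1 library inside the WT range (1.07, SE 0.29, adjusted p = 0.00759). Cat, catalase of peroxisomes, had medians of 64.9, 123 and 52.4 RPKM (0.83, SE 0.2, adjusted p = 0.00301 and 1.14, SE 0.2, adjusted p = 0.00025). Sgk1, a kinase induced by corticosteroids, rose from a control median of 96.8 to 221 RPKM, with WT at 49.2 RPKM (0.95, SE 0.27, adjusted p = 0.00943 and 2.1, SE 0.27, adjusted p = 1.21e-05).

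Within replicates 1 to 4 alone, the calls against control of Ppara, Retsat, Aqp1, Cat and Sgk1 were lost (adjusted p of 0.157, 0.0967, 0.177, 0.178 and 0.0867), while those of Hlf and Slc47a1 were kept. DM-aKG replicate 5 held the highest treated value of 6 of these 7 genes (Hlf, Ppara, Retsat, Slc47a1, Cat and Sgk1), and no call of theirs was lost without it.

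Below both groups were the enzymes that make hydrogen peroxide at the mucosal surface. Duox2, a dual oxidase, lay at 8.39, 14.3 and 55.4 RPKM in control, 1.98, 4.12 and 8.57 RPKM in treated and 25.1, 43.2 and 81.8 RPKM in WT libraries. Its maturation factor Duoxa2 (chromosome 2, 122298900 to 122302885) lay at 14.3, 30.1 and 69.4 RPKM in control, 1.75, 3.31 and 11.1 RPKM in treated and 17.9, 60 and 87.9 RPKM in WT libraries. Every treated library of Duoxa2 was below every control and WT library (-2.57, SE 0.41, adjusted p = 9.2e-05 against control, -3.2, SE 0.41, adjusted p = 1.58e-05 against WT), and for Duox2 this held against WT and, in 5 of 6 libraries, against control (-1.86, SE 0.37, adjusted p = 0.000723 and -3.13, SE 0.37, adjusted p = 6.01e-06). Ripk3, a kinase of necroptosis (chromosome 14, 55784995 to 55788865), lay at 11.1, 12.9 and 20.6 RPKM in control, 3.92, 4.76 and 7.81 RPKM in treated and 13.2, 15 and 17.6 RPKM in WT libraries, with no overlap with either group (-1.25, SE 0.14, adjusted p = 7.66e-07 and -1.4, SE 0.14, adjusted p = 5.59e-07). Id1, an inhibitor of helix-loop-helix factors induced by BMP, had medians of 83.1, 25.3 and 72.5 RPKM in control, DM-aKG and WT libraries (-1.26, SE 0.29, adjusted p = 0.00259 and -1.19, SE 0.29, adjusted p = 0.00387). Endod1, an endonuclease domain protein, lay at 13.9, 17.8 and 18.7 RPKM in control, 6.23, 6.4 and 7.54 RPKM in treated and 7.31, 15.3 and 35.9 RPKM in WT libraries (-1.25, SE 0.23, adjusted p = 0.000337 and -1.22, SE 0.23, adjusted p = 0.000522).

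Lower calls against control and against WT were counted separately for genes of cholesterol synthesis, protein folding and the cell cycle. Of all tested genes, 27.6% were below control (13.8% under median-of-ratios scaling) and 17.3% below WT. Of 24 cholesterol synthesis and uptake genes, 15 were below control and 17 below WT, and 6 and 1 were called lower and higher than control under median-of-ratios scaling. Within replicates 1 to 4 the list's median was -0.43 with 2 genes lower, and within replicates 5 to 7 -0.79 with 11. Idi1, the isopentenyl isomerase, named after its values were seen, lay at 27, 38.2 and 78.8 RPKM in control, 20.1, 23.6 and 26.4 RPKM in treated and 35.4, 57.2 and 94.7 RPKM in WT libraries, below every library of the other groups (-0.81, SE 0.23, adjusted p = 0.00918 and -1.23, SE 0.23, adjusted p = 0.000404). Among chaperones of the endoplasmic reticulum and folding enzymes 8 of 16 were below control and none above, but 3 below and 2 above under median-of-ratios scaling, shares near those of all genes. Against WT 15 of the 16 were lower. Their whole list of 27 tested stress and folding genes had 15 below WT in treated and 13 in control libraries. Pdia6, a disulfide isomerase, lay at 33.6, 43.6 and 58.3 RPKM in control, 14.3, 27.2 and 33.7 RPKM in treated and 42.6, 56.5 and 62.1 RPKM in WT libraries (-0.76, SE 0.16, adjusted p = 0.00113 and -1.05, SE 0.16, adjusted p = 6.98e-05).

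Of 41 cell cycle genes, 18 were below control and 21 below WT, beside 27.6% and 17.3% of all tested genes. Under median-of-ratios scaling 10 were lower and 1 higher than control, beside 13.8% and 12.3%. Control and WT libraries differed by a median of -0.08. The calls against control came mostly from one set: 5 lower and 1 higher within replicates 1 to 4, and 21 lower within replicates 5 to 7. Ccnd1, the G1 cyclin named after its values were seen, lay at 8, 23 and 39 RPKM in control, 3.44, 7.49 and 12.2 RPKM in treated and 19.8, 31.4 and 41.4 RPKM in WT libraries, and no treated library reached the WT range (-1.22, SE 0.3, adjusted p = 0.00387 and -1.84, SE 0.3, adjusted p = 0.000137). The proliferation marker Mki67 did not pass (-0.4, SE 0.31, adjusted p = 0.339) except in replicates 5 to 7 alone (log2 difference -1.25, adjusted p = 0.018). G6pdx and Pgd, the NADPH-producing enzymes of the pentose phosphate pathway, had no treated library inside the WT range, and Pgd fell from medians of 102 RPKM in control and 88.8 RPKM in WT to 59.8 RPKM (-0.7, SE 0.12, adjusted p = 0.000135 and -0.59, SE 0.12, adjusted p = 0.000821).

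**Figure D4:**
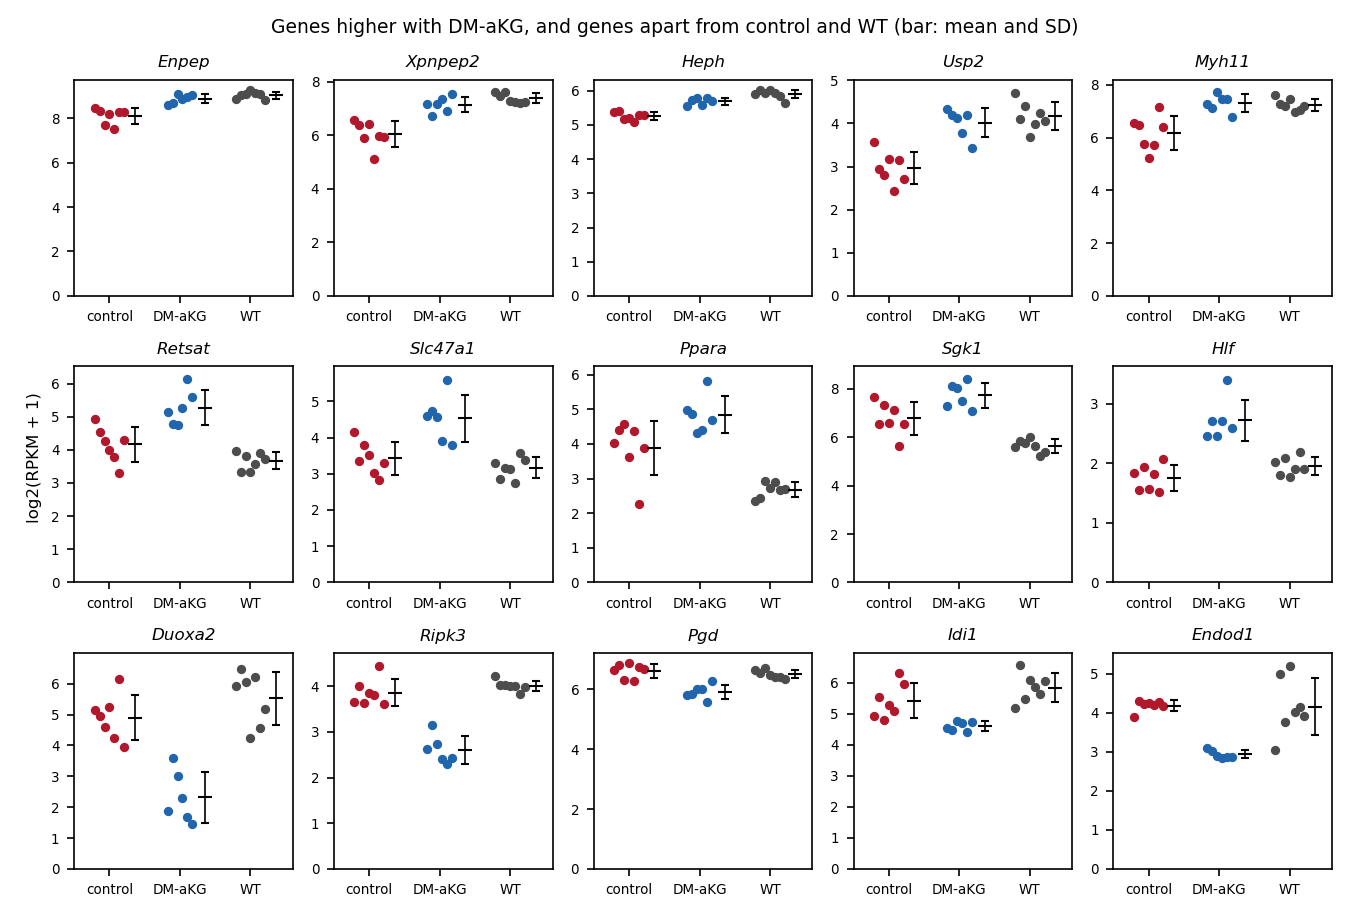
Values in each of the 20 libraries, as log2(RPKM + 1), of 5 genes higher with DM-aKG than control (top row), 5 genes higher than in both other groups (middle row) and 5 genes lower than in both (bottom row); the bar beside each group is its mean with 1 SD. In the top row 2 (Xpnpep2) to 5 (Usp2) of the 6 treated libraries lie inside the WT range. In the middle row the treated libraries lie above the WT range and in the bottom row below it, with overlap in single libraries for Endod1.

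Several groups that set Apc Min apart from WT gave few or no calls with DM-aKG. None of 10 MHC class II genes was called at an adjusted p under 0.05 by limma (3 at an unadjusted p under 0.05), and 2 were higher under median-of-ratios scaling and 3 under quantile normalization. Cd74, the class II invariant chain, lay at 40.3, 96.6 and 156 RPKM in control, 108, 126 and 154 RPKM in treated and 1050.3, 1407 and 1708 RPKM in WT libraries (0.58, SE 0.25, adjusted p = 0.0764 against control, -3.38, SE 0.25, adjusted p = 1.98e-08 against WT), and it passed under median-of-ratios scaling and without control replicate 1 or 2. Ciita, the master regulator of class II genes, lay at 0.0672, 0.274 and 1.48 RPKM in control, 0.144, 0.435 and 0.889 RPKM in treated and 5.35, 6.27 and 8.49 RPKM in WT libraries, with the WT libraries above all others (0.08, SE 0.16, adjusted p = 0.747). Of 17 class I and immunoproteasome genes 1, H2-Q2, was higher (3 under median-of-ratios scaling), and 16 stayed below WT in treated libraries. Psmb8, an immunoproteasome subunit, had medians of 9.77, 11.9 and 75.7 RPKM in control, DM-aKG and WT libraries (0.34, SE 0.27, adjusted p = 0.339). The call of H2-Q2 was lost without DM-aKG replicate 6 (adjusted p = 0.0597). H2-Q2 has close relatives in its gene family, so reads may be shared between them.

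Targets of interferon followed the same order. None of 21 interferon-gamma GTPases and targets was called (0 at an unadjusted p under 0.05; 0 under median-of-ratios scaling), and 20 were below WT in treated libraries. Igtp, one of these GTPases, lay at 1.16, 2.11 and 8.11 RPKM in control, 1.42, 2.3 and 5.3 RPKM in treated and 9.5, 31.2 and 35.9 RPKM in WT libraries (-0.15, SE 0.34, adjusted p = 0.77). Of 20 type I interferon-stimulated genes 1 was lower under both scalings, Oasl1, an oligoadenylate synthetase-like protein (medians 17.1, 9.09 and 25.5 RPKM, -0.82, SE 0.2, adjusted p = 0.00392), and 19 were below WT. The lymphocyte lists moved with these: 13 of 14 T cell and cytotoxic genes were below WT in treated libraries and 14 in control libraries, with a summed level of 5.45 to 52.02 RPKM in control, 11.4 to 34.4 RPKM in DM-aKG and 90.72 to 239.9 RPKM in WT libraries. Gzma, a granzyme, lay at 0.515, 4.56 and 22.1 RPKM in control, 2.96, 6.09 and 9.96 RPKM in treated and 29.8, 78.5 and 101 RPKM in WT libraries (0.3, SE 0.53, adjusted p = 0.69). Whether fewer lymphocytes or less interferon signaling goes with these values was not tested.

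Of 42 nuclear-encoded subunits of the respiratory chain and ATP synthase none was called with DM-aKG (3 at an unadjusted p under 0.05), 5 were higher under median-of-ratios scaling, and 38 were below WT in treated and 36 in control libraries. Ndufs1, a complex I subunit, lay at 18.1, 19.6 and 26.7 RPKM in control, 19.9, 23.3 and 25.5 RPKM in treated and 33.6, 36.8 and 38.5 RPKM in WT libraries (0.1, SE 0.09, adjusted p = 0.422). Ndufs1 passed under median-of-ratios scaling (log2 difference 0.29, adjusted p = 0.0235) and quantile normalization (0.26, adjusted p = 0.0477). Atp5b, the catalytic subunit of ATP synthase, lay at 303, 374 and 446 RPKM in control, 326, 400.1 and 422 RPKM in treated and 539.9, 579 and 676 RPKM in WT libraries (0.08, SE 0.1, adjusted p = 0.583). Genes induced by glucocorticoids are not among the groups with few calls. Of 14 tested, 2 were higher, Sgk1 among them, and 3 lower than control (3 and 1 under median-of-ratios scaling). Over all tested genes 5.91% were higher and 27.6% lower (12.3% and 13.8%). In treated libraries 13 of the 14 were above WT, and in control libraries 10. Fkbp5, a co-chaperone of the glucocorticoid receptor, lay at 29.5, 53.1 and 78.8 RPKM in control, 25.6, 71.1 and 126 RPKM in treated and 3.8, 7.64 and 22.9 RPKM in WT libraries (0.38, SE 0.37, adjusted p = 0.447 against control, 2.8, SE 0.37, adjusted p = 1.69e-05 against WT).

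**Figure D5:**
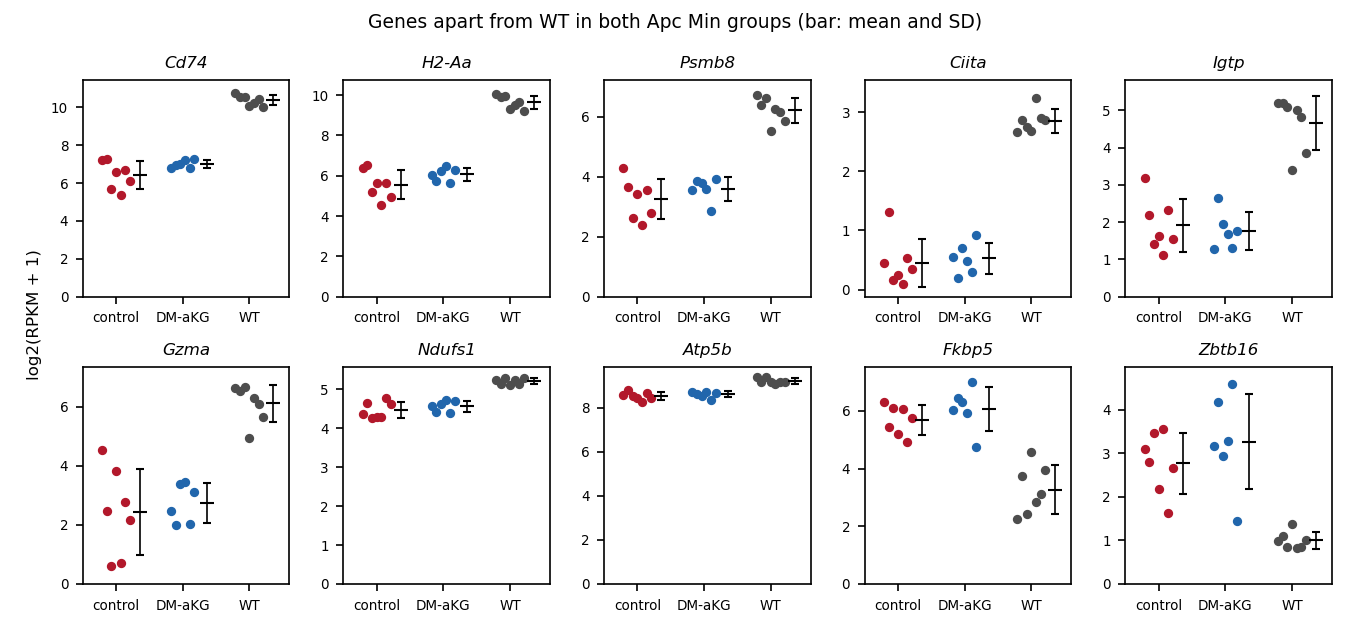
Values in each of the 20 libraries, as log2(RPKM + 1), of 10 genes of antigen presentation, interferon response, cytotoxic lymphocytes, the respiratory chain and glucocorticoid response; the bar beside each group is its mean with 1 SD. Both Apc Min groups lie on the same side of WT for every gene shown, and none was called between treated and control libraries under the main scaling. The glucocorticoid genes shown, Fkbp5 and Zbtb16, are uncalled members of a list with calls both ways. Zbtb16 passed without DM-aKG replicate 6 (limma, adjusted p = 0.04).

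Genes of the TCA cycle and of alpha-ketoglutarate turnover were called in both directions under the main scaling, but only higher under median-of-ratios scaling. Of 31 TCA cycle and pyruvate entry genes 5 were higher and 2 lower (14 and none under median-of-ratios scaling), beside 5.91% and 27.6% of all genes (12.3% and 13.8%). The median difference of these genes was 0.15, against -0.14 over all genes. The 21 cycle enzymes among them held 2 of the higher calls and none of the lower. Mpc1, a subunit of the mitochondrial pyruvate carrier, had medians of 61.1, 79.7 and 64.1 RPKM, higher in all 6 treated libraries than in any control (0.34, SE 0.1, adjusted p = 0.00805). The isocitrate dehydrogenases and the dehydrogenase that consumes alpha-ketoglutarate did not pass: Idh1 had medians of 91.7, 82.5 and 79.5 RPKM (-0.06, SE 0.13, adjusted p = 0.758), Idh2 30.8, 28 and 32.5 RPKM (-0.08, SE 0.17, adjusted p = 0.742) and Ogdh 47.3, 57.7 and 113 RPKM (0.39, SE 0.28, adjusted p = 0.298).

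Of 23 genes of glutamate and alpha-ketoglutarate turnover, 4 were higher and 3 lower (7 and none under median-of-ratios scaling). Gpt, alanine transaminase, which links pyruvate to alpha-ketoglutarate, lay at 23.1, 38.7 and 84.2 RPKM in control, 67.2, 72.9 and 91.4 RPKM in treated and 62.5, 78.5 and 128 RPKM in WT libraries, and all 6 treated libraries were inside the WT range (0.79, SE 0.23, adjusted p = 0.011). The call was lost within replicates 1 to 4 (log2 difference 0.46, adjusted p = 0.223). Glud1, glutamate dehydrogenase, lay at 58.6, 78.5 and 104 RPKM in control, 96.1, 109 and 125 RPKM in treated and 59.5, 137 and 188 RPKM in WT libraries and did not pass (0.43, SE 0.21, adjusted p = 0.115), but passed under median-of-ratios scaling (adjusted p = 0.0463).

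Among 41 tested dioxygenases that use alpha-ketoglutarate, 10 were lower and 1 higher (6 and 3 under median-of-ratios scaling). These shares were near those of all tested genes, 27.6% lower and 5.91% higher (13.8% and 12.3%). The list's median difference was -0.13, against -0.14 over all genes. Of 12 collagen and protein hydroxylases 4 were lower and 1 higher (4 and 2). P4ha2, a prolyl hydroxylase of collagen, lay at 3.74, 4.66 and 7.15 RPKM in control, 1.19, 1.56 and 2.26 RPKM in treated and 0.829, 1.03 and 1.43 RPKM in WT libraries, without overlap between treated and control libraries (-1.21, SE 0.12, adjusted p = 4.44e-07). Plod3, a lysyl hydroxylase of collagen, and P3h1, a prolyl hydroxylase, fell, with log2 differences of -0.59, SE 0.11, adjusted p = 0.000334 and -0.38, SE 0.07, adjusted p = 0.000356. Of 17 histone demethylases 4 were lower and none higher (1 and 1), no larger a share than the 27.6% of all genes. Among them, Kdm5b, which demethylates histone H3 and was named after its values were seen, had medians of 10, 6.91 and 6.07 RPKM (-0.44, SE 0.09, adjusted p = 0.000822). None of 6 demethylases of DNA and RNA was called (0 at an unadjusted p under 0.05), with Tet2 at medians of 4.41, 4.45 and 3.2 RPKM (0.03, SE 0.17, adjusted p = 0.91).

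Promoters were read for members of 2 lists that differ in these data, the hypoxia-inducible genes, of which 8 of 18 were lower with DM-aKG and none higher (6 and none under median-of-ratios scaling), and the type I interferon-stimulated genes, of which 1 of 20 was called under both scalings. The sequences are the 250 bases before the start of 1 transcript per gene from RefSeq (GRCm38.p6, the assembly of mm10), given on the gene's strand from 5′ to 3′. Capitals mark ACGTG, the core of the hypoxia response element, or its reverse complement CACGT in the first 4. In the last 2 they mark GAAA, 2 bases of any kind and GAAA again, the core of the interferon-stimulated response element, or its reverse complement.
Car9, chr4:43506776-43507025 on the forward strand: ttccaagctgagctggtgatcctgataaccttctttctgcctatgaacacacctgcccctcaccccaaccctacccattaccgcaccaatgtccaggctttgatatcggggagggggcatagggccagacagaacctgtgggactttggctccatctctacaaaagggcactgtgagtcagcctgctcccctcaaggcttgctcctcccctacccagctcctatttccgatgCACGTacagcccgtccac
P4ha2, chr11:54100674-54100923 on the forward strand: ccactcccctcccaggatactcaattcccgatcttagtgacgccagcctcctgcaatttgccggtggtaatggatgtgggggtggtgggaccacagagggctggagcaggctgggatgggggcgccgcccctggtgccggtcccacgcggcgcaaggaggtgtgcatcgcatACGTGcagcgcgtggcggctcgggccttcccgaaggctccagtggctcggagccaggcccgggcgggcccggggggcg
Ero1l, chr14:45318573-45318822 on the reverse strand: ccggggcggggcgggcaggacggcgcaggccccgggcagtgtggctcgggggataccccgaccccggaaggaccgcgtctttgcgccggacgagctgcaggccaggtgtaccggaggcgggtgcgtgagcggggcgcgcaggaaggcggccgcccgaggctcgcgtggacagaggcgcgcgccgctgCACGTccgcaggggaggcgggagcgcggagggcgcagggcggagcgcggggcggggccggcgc
Egln3, chr12:54203875-54204124 on the reverse strand: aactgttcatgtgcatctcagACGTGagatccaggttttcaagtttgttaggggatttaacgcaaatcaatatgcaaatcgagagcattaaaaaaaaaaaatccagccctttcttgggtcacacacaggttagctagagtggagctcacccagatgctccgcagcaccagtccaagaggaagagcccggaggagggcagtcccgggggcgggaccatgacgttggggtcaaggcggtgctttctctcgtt
Ifit1, chr19:34640639-34640888 on the forward strand: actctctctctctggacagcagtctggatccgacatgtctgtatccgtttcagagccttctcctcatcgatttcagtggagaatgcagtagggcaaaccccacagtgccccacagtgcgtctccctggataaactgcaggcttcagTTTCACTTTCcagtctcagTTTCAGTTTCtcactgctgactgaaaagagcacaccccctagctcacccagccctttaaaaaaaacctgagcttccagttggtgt
Isg15, chr4:156200819-156201068 on the reverse strand: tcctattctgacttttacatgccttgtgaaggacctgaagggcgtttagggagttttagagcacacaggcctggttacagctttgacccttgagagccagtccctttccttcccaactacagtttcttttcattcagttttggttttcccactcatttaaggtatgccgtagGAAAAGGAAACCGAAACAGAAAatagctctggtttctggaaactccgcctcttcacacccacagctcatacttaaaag
Car9, a carbonic anhydrase at the cell surface and a common HIF target, lay at 23.7, 34.9 and 45.1 RPKM in control, 7.87, 12.1 and 16.2 RPKM in treated and 12.9, 15.2 and 17.4 RPKM in WT libraries (-1.44, SE 0.15, adjusted p = 3.24e-07). Ero1l, an oxidase of the endoplasmic reticulum listed in RefSeq as Ero1a, had medians of 22.5, 12 and 15.9 RPKM in control, DM-aKG and WT libraries (-0.87, SE 0.1, adjusted p = 2.52e-06), and Egln3, an oxygen-sensing prolyl hydroxylase, 59.2, 32.1 and 27.1 RPKM (-0.92, SE 0.18, adjusted p = 0.00066). All 3 were below every control in all 6 treated libraries, as was P4ha2. Ifit1 and Isg15, antiviral effectors, had control, DM-aKG and WT medians of 1.98, 1.25 and 16.3 RPKM and of 1.84, 1.11 and 11.3 RPKM and did not pass (-0.43, SE 0.24, adjusted p = 0.188 and -0.32, SE 0.35, adjusted p = 0.507).

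Over the whole window, from 250 bases before to 50 after the start, ACGTG on either strand was found in 10 of the 16 hypoxia-inducible genes with a promoter sequence (62.5%) and in 25.6% of the promoters of 9898 tested genes. It stood in 27.9% of promoters of genes called lower and 18.9% of those called higher. Of the 10 list members with a match, 6 were called lower and 4 were not called. The E-box CACGTG contains ACGTG, so these matches overlap, and it was found in 22.2% of ribosome biogenesis promoters and 10.2% of all. The interferon-stimulated core was found in 11 of 16 interferon-stimulated genes (68.8%) and 3.19% of all, and none of the 11 was called with DM-aKG. TTTGAA, the cell cycle homology region, was found in 12 of 32 cell cycle promoters (37.5%) and 12% of all, with 12.3% of promoters among genes called lower and 12.1% among genes called higher. These shares describe letters in a short window, and a match is not shown to be a binding site.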

How the data were processed

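RNA from 20 libraries (7 Apc Min control, 6 Apc Min DM-aKG, 7 WT) was sequenced. The authors deposited 1 table of RPKM values per gene, a unit inferred here from the values since no header or label names it. Tools and build named per the submitters' processing notes are CASAVA 1.8, HISAT2 2.0.4, Partek and mm10. The spacing of low values gave an estimate of depth. Of those values 68.2 to 74.5% per library fell within 0.1 reads of a whole number (20% if evenly spread), which is too few to recover reads, so no count test was run. Strand use in counting is not given in the sources used here.

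Genes reaching 1 RPKM or more in 6 or more libraries were fitted as log2(RPKM + 1) with limma 3.58.1 in R 4.3.3 (3 groups in 1 fit, empirical Bayes with trend and robust settings), and p-values were adjusted by Benjamini-Hochberg over all 12433 genes. The script was tested on simulated data. Of the gene names, 26 had been turned into dates and were not matched to genes. Positions are from GENCODE M21 (24185 names matched) and promoters from RefSeq. Alternatives covered pseudocount, filter, scaling, weights, replicate block, replicate sets, a smooth muscle covariate, a fold threshold and each library left out.

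Members and gene lists were chosen with earlier results of these data known. Named genes were up to 4 called members with the smallest p per list, the 15 largest rises and falls with separated medians (leaving out Wnt and Paneth lists, defensins, predicted genes and antibody segments), the 8 largest each way called against control and WT alike, and a fixed set of reference genes. Chosen after their values were seen were Mmp10, Mmp13, Timp2, Plaur, Reck, Tfpi, Ereg, Aldh1a1, Dhrs3, Cyp26b1, Slc6a19, Alpl, Lct, Fabp6, Gata4, Idi1, Ccnd1, Kdm5b, Adipoq, Cd74, H2-Aa, Ciita, Psmb8, Igtp, Ifit1, Isg15, Gzma, Ndufs1, Atp5b, Fkbp5 and Zbtb16, as were ribosomal and hormone genes listed as the called members of a small count. Some list members are counted but not reported by name here.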

Additional observations from a re-analysis of the deposited data

Results flagged for a closer look

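A library was marked here when its value lay far from the nearest other library of its group, by Dixon's 95% criterion. Of 429 group tests, 35 were marked, and chance marks about 1 in 20 groups. All values below are in RPKM, with the nearest library of the group in brackets. DM-aKG replicate 2 was far above its group for Adam8 at 1.71 (0.608), Etv4 at 4.13 (0.679), Ajuba at 3.22 (1.5), Onecut2 at 3.62 (0.724), Sox4 at 16.5 (6.63), Muc6 at 14.7 (1.31), Gars at 41.5 (29.5), Eif4a1 at 191 (139.6) and Alpl at 2.24 (0.579). DM-aKG replicate 5 was far above its group for Nr1i2 at 48.4 (29.9), Hlf at 9.53 (5.59), Tet2 at 6.52 (4.54) and Slc26a3 at 85.4 (55.9). DM-aKG replicate 5 was far below its group for Pdia6 at 14.3 (25.2) and Psmb8 at 6.24 (10.7). Control replicate 1 was far above its group for Pycr1 at 8.09 (4.31) and Sst at 28.7 (18.5). Control replicate 1 was far below its group for Mmp10 at 24.9 (56), Dusp4 at 5.02 (10.1), Foxa1 at 16.5 (21) and Endod1 at 13.9 (16.9). DM-aKG replicate 6 was far above its group for Lct at 195 (1.85). DM-aKG replicate 6 was far below its group for Rpl7 at 357 (501) and Rps6 at 246 (327). WT replicate 1 was far above its group for Stra6 at 0.653 (0.195). WT replicate 1 was far below its group for Fabp6 at 158 (2838). WT replicate 6 was far above its group for Bpifb5 at 0.0208 (0) and Onecut2 at 0.466 (0.196). Control replicate 4 was far above its group for Anxa10 at 20.2 (7.42). Control replicate 4 was far below its group for Gcg at 2.74 (10). Control replicate 6 was far below its group for Ppara at 3.83 (11.3) and Cyp26b1 at 1.01 (2.09). WT replicate 5 was far above its group for Ciita at 8.49 (6.47). Control replicate 2 was far above its group for Ciita at 1.48 (0.452). The depth of control replicate 1 was 21.2 M reads, against 26.7 M for the nearest control library.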

How the results depend on the processing

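For DM-aKG against control, genes called higher and lower numbered 1750 and 1849 under quantile normalization, 1532 and 1718 under median-of-ratios scaling, 459 and 2212 under a filter of 5 RPKM, which tests fewer genes, 404 and 1821 in replicates 1 to 4 alone, and 15 and 449 when changes were tested against a log2 threshold of 0.5. Higher calls fell to 381 in replicates 5 to 7 alone and to 219 with the smooth muscle covariate. For DM-aKG against WT they were 1712 higher under the stricter filter, 198 and 349 in replicates 5 to 7 alone, and 148 and 170 with the fold threshold. For control against WT they were 3239 and 3348 under quantile normalization, 3277 and 3420 under median-of-ratios scaling, 2947 and 590 with the smooth muscle covariate, 1106 and 383 with the fold threshold, 3306 higher under the stricter filter and 1141 lower in replicates 5 to 7 alone. Where the construction of the alternative does not show it, the cause was not tested. Leaving out 1 library gave 572 to 881 higher and 2866 to 3714 lower against control, 2231 to 2976 and 1571 to 2265 against WT, and 4985 to 5501 and 1696 to 2026 for control against WT. With the replicate number as a block (replicate block), 758 were higher and 3603 lower than control, and no call of the 140 genes described changed. Of 19 same-number pairs of libraries, 8 correlated above 0.1 (median 0.066, -0.457 to 0.604), so the numbers were not taken to pair the libraries; the division of replicates 1 to 4 from 5 to 7 is given apart. Of these 140 genes, 24 lost their call in replicates 1 to 4 alone, 23 in replicates 5 to 7 alone, 24 with the smooth muscle covariate and 60 with the fold threshold, and no called change reversed its direction under any alternative run. Genes under about 1 RPKM rest on few reads at this depth. The calls lost in replicates 1 to 4 alone were those of Vil1, Ugt2b34, Nr1i2, Ehhadh, Otc, Retsat, Aqp1, Ppara, Sgk1, Cat, Mpc1, Idi1, H2-Q2, Gpt, Mcpt1, Tfpi, Aldh1a1, Dhrs3, Cyp26b1, Slc6a19, Slc7a8, Alpl, Rps2 and Rps6. Those lost in replicates 5 to 7 alone were of Id1, Pgd, G6pdx, Egln3, Ccnd1, Rpl7, Vil1, Otc, Ppara, Sgk1, Gcg, Snap25, Oasl1, Myh11, Chgb, Reck, Tfpi, Cyp26b1, Rpl27, Rps2, Rps6, Chga and Neurod1. With the smooth muscle covariate they were of Rpl7, Vil1, Ugt2b34, Otc, Cat, Gcg, Snap25, Mpc1, H2-Q2, Gpt, Kdm5b, Myh11, Reck, Tfpi, Aldh1a1, Dhrs3, Cyp26b1, Alpl, Ahr, Rpl27, Rps2, Rps6, Chga and Neurod1.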
